A study of Mus musculus with 6 samples.

Results

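The 7 genes described here write, copy and erase cytosine methylation: Dnmt1 and its cofactor Uhrf1, the de novo methyltransferases Dnmt3a and Dnmt3b, and the oxidases Tet1, Tet2 and Tet3. They were taken by symbol from a count table of 23377 genes, all 7 were found, and all 7 passed the filter on low counts that left 13134 genes for testing. Expression was measured by RNA-seq in hair follicle stem cells of C57BL/6 mice, with 2 libraries labelled Ring1a/b-/- (knockout, RingKO) and 2 labelled WT (wild type), each from 3000 cells sorted by flow cytometry. Ring1a and Ring1b are the partly redundant catalytic subunits of Polycomb repressive complex 1, which ubiquitinates histone H2A and keeps developmental genes off. The sources used here do not give the age and sex of the mice, the driver and timing of the deletion, or whether libraries of a genotype came from different animals. The p-values therefore measure only the spread between these libraries, which may be technical.

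In mammals methylation sits mostly on CpG dinucleotides. Dnmt3a and Dnmt3b place it on unmethylated DNA, and Uhrf1 recognises the half-methylated CpG left behind by replication and brings Dnmt1 there to copy the mark to the new strand. The Tet enzymes oxidise methylcytosine with iron and 2-oxoglutarate, a step towards its removal. In the epidermis Dnmt1 and Uhrf1 are known from cycling progenitors, and Dnmt3a is known to act in epidermal stem cells.

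Libraries held 2785843 to 7740945 counts, the knockout pair being the deeper. Differences were tested with the quasi-likelihood test of edgeR, with p-values adjusted by Benjamini-Hochberg over all genes tested. The genes targeted by the knockout did not check the labels: over the whole gene, Ring1 (Ring1a) stood at 15.5 and 18.4 CPM (counts scaled to a common depth) in the knockout against 31.9 and 29.4 in the wild type, and Rnf2 (Ring1b) at 151 and 153 against 144 and 87.8. Which exons were deleted is unknown from the sources used here. Summed markers of follicle stem cells (6 of 6 in the counts, Lgr5, Krt15 and Cd34 among them) ran from 850 to 961 CPM in the knockout and from 800 to 860 in the wild type. Within that sum Sox9 stood at 172 and 156 against 49.4 and 95.1 CPM and Lgr5 at 251 and 239.6 against 139.7 and 194 CPM, while Krt15 stood at 303 and 250.2 against 417 and 362 CPM and Cd34 at 15.3 and 2.61 against 24.3 and 20.4 CPM. Those of keratinocytes (5 of 5) ran from 1219 to 1341 and from 1347 to 1463. Among them Itgb4 stood at 157 and 148 against 117 and 87.4 CPM, Krt14 at 246 and 208 against 292 and 290 CPM, and Trp63 at 369 and 361 against 538 and 409 CPM. Krt5 and Itga6 overlapped between genotypes.

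Of the 7 genes Dnmt3a had the largest fold difference between genotypes, so the sequence before its start sites is shown first. The RefSeq table holds 3 start sites for it on GRCm38.p6, a later build than the mm9 of the deposited data. The internal start lies far downstream of the first pair and gives a shorter protein, known from germ cells and embryonic stem cells. The counts cover the whole gene and do not show which start was used. The 250 bases before the first and the internal start read as follows on the plus strand, with each CpG, the target of these enzymes, in capitals.
Dnmt3a first start, chr12:3806730-3806979: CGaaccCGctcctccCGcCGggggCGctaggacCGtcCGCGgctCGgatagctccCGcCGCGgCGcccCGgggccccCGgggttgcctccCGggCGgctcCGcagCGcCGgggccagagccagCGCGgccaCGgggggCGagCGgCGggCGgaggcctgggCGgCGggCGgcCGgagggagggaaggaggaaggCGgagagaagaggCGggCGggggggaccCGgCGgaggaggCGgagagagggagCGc
Dnmt3a internal start, chr12:3891494-3891743: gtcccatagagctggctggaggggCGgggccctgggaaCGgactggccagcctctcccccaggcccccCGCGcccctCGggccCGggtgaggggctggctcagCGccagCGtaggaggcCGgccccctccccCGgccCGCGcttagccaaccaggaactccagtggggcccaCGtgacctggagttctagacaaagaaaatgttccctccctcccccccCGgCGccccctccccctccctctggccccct

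The first window held 38 CpG and the internal one 15, where the median over 32851 windows of this length before RefSeq starts was 6. Each of the 7 genes had at least 1 window in the RefSeq table, 12 in all. Their CpG-richest windows held 51 CpG for Tet2, 40 for Dnmt3a (at its second start), 30 for Uhrf1, 26 for Dnmt1, 21 for Dnmt3b, 17 for Tet3 and 15 for Tet1, and the median over 9812 tested genes was 17. Tet2 and Dnmt3a were above 99.9% and 96.9% of those genes, and Tet1 above 40.4%, so the group as a whole is mixed in this respect. Genes with several starts had more chances of a CpG-rich window.

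The plot of the 7 levels by library shows at which genes the genotypes separated and at which they overlapped. Among all genes tested, CPM of the genotypes did not overlap at 47%. CPM are scaled with TMM factors and are not corrected for transcript length, so levels are compared between libraries and not between genes.

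**Figure D1:**
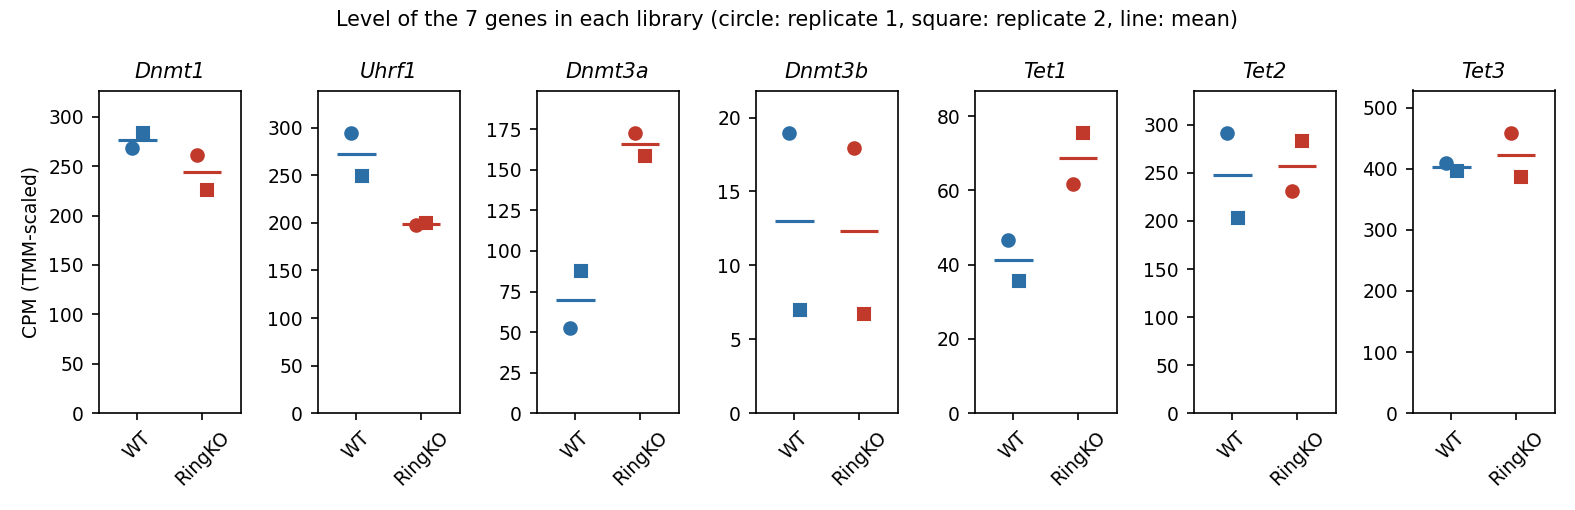
Level of each of the 7 genes in each library, in CPM on a linear axis from 0, with a scale of its own per gene; blue is wild type, red is knockout, circles are replicate 1, squares replicate 2 and lines genotype means (n = 2). Dnmt3a and Tet1 were higher and Uhrf1 and Dnmt1 lower in both knockout libraries, while Dnmt3b, Tet2 and Tet3 overlapped. Of all genes tested, 47% had no overlap between genotypes.

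Of the maintenance pair, Uhrf1 was lower in the knockout and Dnmt1 differed little. Uhrf1, the reader that guides Dnmt1 to replicated DNA, stood at 198 and 200.3 CPM in the knockout libraries against 295 and 249 CPM in the wild type. The 2 knockout libraries were nearly equal and both lay below both wild-type libraries. The means were 199 ± 1.87 and 272 ± 32.6 CPM (SD, n = 2), a log2 fold change of -0.45 ± 0.18 (SE) with an unadjusted 95% interval of -0.87 to -0.03. In edgeR the p was 0.0392 before adjustment, under the threshold, and the adjusted p was 0.272, above it. Dnmt1, the methyltransferase that copies the mark, stood at 261 and 226 CPM in the knockout libraries against 269 and 284 CPM in the wild type. Its groups did not overlap, but the nearest libraries of the genotypes were closer to each other than the 2 knockout libraries were. The log2 fold change was -0.18 ± 0.18 with an interval of -0.59 to 0.23 (edgeR adjusted p = 0.706), which spans 0.663 to 1.17 times the wild-type level. Relative to Dnmt1 within each library, which needs no scaling, there were 75.7 and 88.6 Uhrf1 counts per 100 Dnmt1 counts in the knockout against 110 and 87.7 in the wild type. This ratio overlapped between genotypes.

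Of the de novo enzymes, Dnmt3a was higher in the knockout and Dnmt3b was too variable to place. Dnmt3a stood at 173 and 158 CPM in the knockout libraries against 52.4 and 87.4 CPM in the wild type. Both knockout libraries lay well above both wild-type libraries, and the wild-type pair differed 1.67-fold between themselves against 1.09-fold in the knockout pair. The means were 166 ± 10.4 and 69.9 ± 24.8 CPM (SD, n = 2), a 2.36-fold difference with an unadjusted 95% interval of 1.51 to 3.7, and a log2 fold change of 1.24 ± 0.28 (SE). Dnmt3a ranked 165 among 13134 genes by p in edgeR and did not pass after adjustment (adjusted p = 0.147). Per 100 Dnmt1 counts there were 66.3 and 70 Dnmt3a counts in the knockout against 19.5 and 30.8 in the wild type, a ratio that needs no scaling of the libraries. It uses the same Dnmt3a counts, and Dnmt1 was itself lower in the knockout (log2 fold change -0.18), which widens it. In the authors' deposited table Dnmt3a has a log2 fold change of 1.24 and an adjusted p of 0.000289.

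The size of the Dnmt3a difference moved with the wild-type library left out. Without wild-type replicate 1, the lowest, the log2 fold change was 0.93 (edgeR adjusted p = 0.169), and without wild-type replicate 2 it was 1.64 and passed (adjusted p = 0.0466). Over all 13 alternatives its log2 fold change ran from 0.93 to 1.64 and its adjusted p from 0.000289 to 0.591, with 4 past the threshold. Dnmt3aos, annotated inside the Dnmt3a locus, held 15 and 7 counts in the knockout against 0 and 2 in the wild type beside the 138 to 1272 counts of Dnmt3a. Whether counting used strand is unknown from the sources used here, so the reads of both transcripts cannot be told apart.

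Summed markers of some other cell types differed between the libraries. At an adjusted p under 0.05 edgeR called none of the marker genes tested, and only 0.0609% of all genes tested. In bulk samples such as these, fewer cells of a type and less RNA per cell cannot be told apart. The summed leukocyte markers (12 in the counts, Cd207 at 0 in all libraries) were 773 and 302 CPM in the knockout libraries against 167 and 148 CPM in the wild type, and of the defining T cell genes Cd3e and Cd3g none exceeded 0.667 CPM. The summed fibroblast markers (6 of 6) were 321 and 196 CPM in the knockout libraries against 639 and 772 CPM in the wild type. Most of that sum was Dcn, at 272 and 159 against 593 and 430.1 CPM, and the others went different ways: Col1a1 stood at 13.3 and 17.8 against 14.4 and 113 CPM, Col1a2 at 13.5 and 5.98 against 11.4 and 139 CPM, and Pdgfra at 6.66 and 12.2 against 0.38 and 6.34 CPM. Without knockout replicate 1, the library with the highest leukocyte sum, the log2 fold change of Dnmt3a was 1.18, that of Tet1 was 0.87 and that of Uhrf1 was -0.44. The other knockout library still had a higher leukocyte sum than either wild-type library, and the part of these cells in the differences was not tested. In that library Cd74 (62.2 CPM), Lyz2 (74.2), Ptprc (36.3), Tyrobp (26.8), Fcer1g (30.6) and C1qa (26.3) lay above both wild-type libraries. H2-Aa (7.97 CPM) and Csf1r (29.1) lay between the wild-type libraries, and Cd68 (8.09) lay below both. Merkel cell markers (6 of 6) summed to 78.9 and 109 CPM in the knockout libraries against 7.97 and 31.4 in the wild type. Most of that sum was Krt8, at 23.2 and 49.5 against 4.56 and 20 CPM, and Krt18, at 39.4 and 41 against 3.42 and 5.34 CPM. Isl1 stood at 13.5 and 12.1 against 0 and 3.67 CPM, and Sox2 at 2.22 and 4.98 against 0 and 0 CPM. Atoh1 (0 and 0.871 against 0 and 0.667 CPM) and Krt20 (0.606 and 0.124 against 0 and 1.67 CPM) were near 0 and overlapped. Melanocyte markers (5 of 5) summed to 51.9 and 33.6 against 44 and 63.1, and endothelial markers (4 of 4, Emcn at 0 throughout) to 0.606 and 0.498 against 1.14 and 33.7.

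Dnmt3b, the other de novo enzyme, stood at 18 and 6.72 CPM in the knockout libraries against 19 and 7.01 CPM in the wild type. Replicate 1 was 2.67 times replicate 2 in the knockout and 2.71 times in the wild type, so the spread within each genotype was far larger than the difference between their means of 12.3 ± 7.95 and 13 ± 8.47 CPM (SD, n = 2). These levels rest on 21 to 89 counts per library. The log2 fold change was -0.08 ± 0.98 with an interval of -2.32 to 2.17 (edgeR adjusted p = 0.988), which covers large differences in either direction. Its sign turned to 0.03 when libraries were scaled by their totals alone. Dnmt3c, a rodent duplicate of Dnmt3b, was matched to no row and is not analysed here, so reads shared by the copies cannot be assigned.

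The make-up of the de novo pair did not separate the genotypes. Dnmt3a made up 90.6% (Wilson 95% interval 88.6 to 92.3) and 95.9% (94.7 to 96.9) of the Dnmt3a and Dnmt3b counts in the knockout libraries. In the wild-type libraries it made up 73.4% (66.7 to 79.2) and 92.6% (88.9 to 95.1), so wild-type replicate 2 lay between the knockout libraries. The intervals treat each read as a separate molecule and leave out the spread between libraries. Reads amplified by PCR do not stand for separate molecules, so the intervals can be too narrow even for counting error.

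Of the Tet erasers, Tet1 was higher in the knockout while Tet2 and Tet3 overlapped. Tet1, whose product carries a CXXC zinc finger that binds CpG-rich DNA, stood at 61.8 and 75.6 CPM in the knockout libraries against 46.7 and 35.7 CPM in the wild type. The knockout pair lay above the wild-type pair, with a gap about as wide as the spread within each pair. The means were 68.7 ± 9.75 and 41.2 ± 7.78 CPM (SD, n = 2), a 1.67-fold difference and a log2 fold change of 0.74 ± 0.36 with an interval of -0.08 to 1.56. It did not pass before adjustment or after it (edgeR adjusted p = 0.35), and with a trend on gene span and abundance removed the log2 fold change was 0.45. Tet2, which lacks that zinc finger, stood at 231 and 283 CPM in the knockout libraries against 292 and 204 CPM in the wild type. The highest and the lowest library were both wild type, the log2 fold change was 0.05 ± 0.22 with an interval of -0.46 to 0.57, and the edgeR adjusted p was 0.955. Tet3, which has forms with and without the zinc finger, stood at 459 and 387 CPM in the knockout libraries against 410 and 396 CPM in the wild type. Its log2 fold change was 0.07 ± 0.18 with an interval of -0.33 to 0.47 (edgeR adjusted p = 0.917), so differences beyond 1.39-fold higher or 0.794 of the wild-type level lie outside the unadjusted interval.

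CPM did not overlap between genotypes at 47% of the genes tested. Within the Tet family the Tet1 share of counts also separated the genotypes, but it rests on the same Tet1 counts and is not separate evidence. It was 8.22% (7.38 to 9.15) and 10.1% (9.4 to 10.9) in the knockout and 6.24% (5.25 to 7.39) and 5.62% (4.67 to 6.75) in the wild type, where the intervals of knockout replicate 1 and wild-type replicate 1 touch. The Tet2 share was 30.7% and 37.9% in the knockout against 39% and 32.1% in the wild type, and the Tet3 share was 61.1% and 51.9% against 54.8% and 62.3%, so these overlapped. Shares of counts depend on transcript length and are compared between libraries only.

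**Figure D2:**
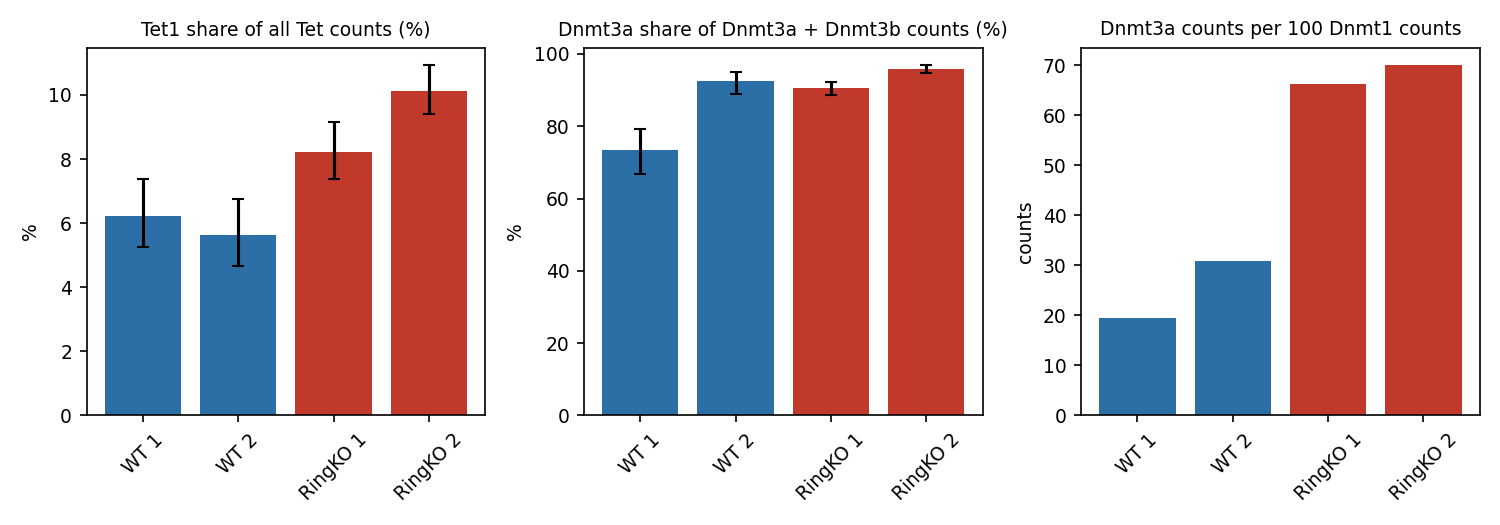
Ratios that need no scaling between libraries, for each library (blue wild type, red knockout): the Tet1 share of Tet counts and the Dnmt3a share of Dnmt3a and Dnmt3b counts, in percent with Wilson 95% intervals, and Dnmt3a counts per 100 Dnmt1 counts. The Tet1 share was 5.62% to 6.24% in the wild type and 8.22% to 10.1% in the knockout, the Dnmt3a share overlapped, and the Dnmt3a to Dnmt1 ratio was 19.5 and 30.8 against 66.3 and 70.

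Of the 7 genes edgeR called 0 at an adjusted p under 0.05, where it called 0.0609% of the 13134 genes tested. At an unadjusted p under 0.05 it called 2, Dnmt3a higher and Uhrf1 lower, where 16.6% of genes tested had one. Limma-voom called 0 of the 7 and 0% of all genes, with 2 unadjusted against 14.8%. DESeq2 called 2, Dnmt3a and Uhrf1, against 12.4% of 14502 genes given an adjusted p, and had 3 unadjusted against 19.4% of genes. Of the 7 in the authors' deposited table, 2 have an adjusted p under 0.05, against 12.4% of 14502 genes there, and 1, Dnmt3a, is marked as higher, against 8.64% marked in either direction. That table is not independent of the counts tested here, since DESeq2 run on them gave the same number of genes, 1792, at an adjusted p under 0.05. It gives Uhrf1 a log2 fold change of -0.45 with an adjusted p of 0.0487 and no mark, and Tet1 0.74 with 0.122. Genotypes did not overlap at 4 of the 7 genes, against 47% of the genes tested, so that count is near the background. The median log2 fold change of the 7 was 0.05, beside 0.03 over all genes tested.

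**Figure D3:**
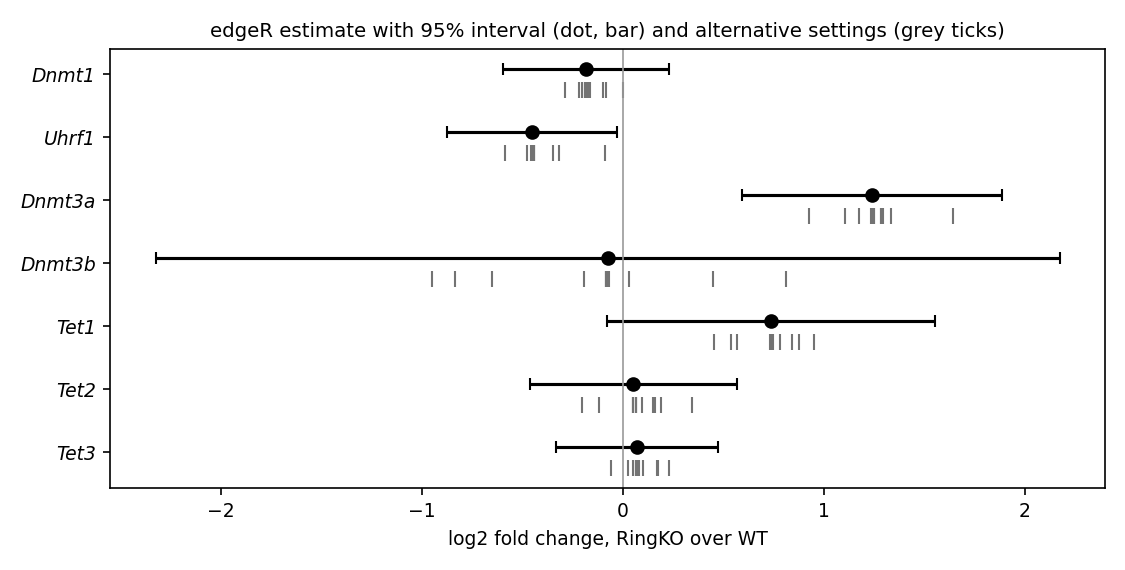
Log2 fold change, knockout against wild type, for the 7 genes: black dots with bars are the edgeR estimate and its unadjusted 95% interval, and grey ticks are the 13 alternative settings. Dnmt3a (1.24) lay above 0 and Uhrf1 (-0.45) below 0 with their whole intervals, while Dnmt1, Dnmt3b, Tet2 and Tet3 had settings on both sides of 0.

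Genes that work with these enzymes, germline genes and cell cycle genes were described by lists of 112 genes in 10 groups. Of these, 92 passed the filter and were tested. None of the 92 passed edgeR's test after adjustment. At an unadjusted p under 0.05 edgeR had 20 of them (21.7%), all lower, where it had 16.6% of all genes tested, 8.16% lower and 8.47% higher. Limma-voom called 0 (22 unadjusted, against 14.8% of all genes), and DESeq2 called 18, all lower, against 6.14% of genes called lower. The S phase and mitosis lists supplied 6 and 8 of the 20 in edgeR, and 5 and 8 of the 18 in DESeq2. The 92 had a median log2 fold change of -0.23, and 63% of them had a negative value, against 47.7% of all genes tested. The members were chosen with results known, and no list is shown to stand apart from the other genes.

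Among maintenance partners the replication clamp gene stood lowest. Of 8 listed, 7 were tested, 3 had a positive and 4 a negative log2 fold change, and the median was -0.17 (-0.34 to -0.04 with a library left out). Pcna, the sliding clamp of replication that holds Dnmt1 at the fork, stood at 185 and 172 CPM in the knockout libraries against 276 and 272 CPM in the wild type. It had a log2 fold change of -0.62 ± 0.18 (edgeR adjusted p = 0.159). Pcna was the 1 member past an unadjusted p under 0.05 in edgeR, where 16.6% of all genes tested had one. It was also the 1 called by DESeq2, where 6.14% of 14502 genes were called lower. With the trend on gene span and abundance removed its log2 fold change was -0.02 (edgeR adjusted p = 0.97). Usp7, a deubiquitinase that stabilises Dnmt1 and Uhrf1, stood at 222 and 226 against 211 and 226 CPM.

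De novo partners, the histone methyltransferases and cofactors that guide new methylation, had a median of 0.11 (0.05 to 0.18 with a library left out), with 8 of 9 tested members positive, against 52.3% of all genes tested. Nsd1, whose H3K36 methylation recruits Dnmt3a, stood at 502 and 483 CPM in the knockout libraries against 500 and 457 CPM in the wild type, and Nsd2, a related enzyme, at 316 and 233 against 259 and 284 CPM. The 1 member at an unadjusted p under 0.05 was Trim28, the corepressor of KRAB zinc finger proteins, at 148 and 168 against 188 and 262 CPM (edgeR adjusted p = 0.297). Limma-voom and DESeq2 also called 0 of these, with 1 unadjusted each. Dnmt3l, the cofactor of Dnmt3a and Dnmt3b without catalytic activity, stood at 26.4 and 21.7 CPM in the knockout libraries against 4.56 and 21 CPM in the wild type, so the difference rests on wild-type replicate 1. Trim28 and Dnmt3l were picked for mention after their values were seen.

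Readers of methylated CpG had a median of 0.16 over 8 tested (-0.08 without wild-type replicate 2), 5 positive and 3 negative, with 0 at an unadjusted p under 0.05 in edgeR and limma-voom and 1 in DESeq2 before adjustment (0 after). Mbd4, a reader with a DNA glycosylase domain, stood at 74.9 and 117 CPM in the knockout libraries against 99.9 and 113 CPM in the wild type. CXXC proteins, which bind unmethylated CpG, had a median of 0.3 over 8 tested, 6 positive, and it was 0.04 when knockout replicate 1 was left out and 0.12 when wild-type replicate 1 was. Kmt2a, an H3K4 methyltransferase, stood at 314 and 310.2 CPM in the knockout libraries against 250.2 and 298 CPM in the wild type, and Kdm2a, an H3K36 demethylase, at 187 and 197 against 137 and 172 CPM. Cxxc1, the CpG-binding subunit of Set1 methyltransferase complexes, singled out after its value was seen, was the 1 CXXC gene at an unadjusted p under 0.05 and the 1 called by DESeq2, at 58.3 and 59.1 against 104 and 90.4 CPM (edgeR adjusted p = 0.237). None of these 4 groups held a gene that limma-voom called, and its unadjusted counts were 2, 1, 0 and 1. Of all genes, 16.6% in edgeR, 14.8% in limma-voom and 19.4% in DESeq2 had an unadjusted p under 0.05. DESeq2 called 6.14% of 14502 genes lower after adjustment.

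Of the Tet partners and genes of 2-oxoglutarate supply 6 of 7 had a negative log2 fold change, against 47.7% of all genes tested, with a median of -0.47. The median was -0.19 without wild-type replicate 1 and -0.26 with the trend on gene span and abundance removed. Ogt, the O-GlcNAc transferase that binds Tet proteins, stood at 439 and 394 CPM in the knockout libraries against 377 and 341 CPM in the wild type, and Ddb1, the adaptor of a ubiquitin ligase that modifies Tets, at 227 and 242 against 380 and 269 CPM. Neither passed, and edgeR, limma-voom and DESeq2 called 0 of the 7, where they called 0.0609%, 0% and 12.4% of all genes. Unadjusted, they had 0, 0 and 3, against 16.6%, 14.8% and 19.4% of all genes. The repair genes that follow Tet oxidation had a median of -0.13 over 12 tested, 4 positive and 8 negative. It was -0.38 without knockout replicate 2, -0.30 without wild-type replicate 2 and -0.02 without knockout replicate 1. Parp1, which senses DNA breaks, stood at 113 and 136 CPM in the knockout libraries against 166 and 214 CPM in the wild type (log2 fold change -0.60 ± 0.22, edgeR adjusted p = 0.229). It was the 1 called by DESeq2, where 6.14% of 14502 genes were called lower. Polb, the gap-filling polymerase, stood at 104 and 106 against 133 and 147 CPM. Tdg, the glycosylase that cuts out oxidised methylcytosine, picked after its values were seen, stood at 4.04 and 3.98 against 4.94 and 4 CPM.

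Of the genes of methyl donor supply 8 of 10 had a negative log2 fold change, against 47.7% of all genes tested, with a median of -0.35. The median was -0.19 without wild-type replicate 1 and -0.18 with the trend removed. Ahcy, which clears the inhibitory by-product of methyl transfer, stood at 137 and 156 CPM in the knockout libraries against 312 and 235 CPM in the wild type, a log2 fold change of -0.90 ± 0.21 (edgeR adjusted p = 0.147). Mat2a, which makes S-adenosylmethionine, stood at 325 and 283 against 516 and 415 CPM, a log2 fold change of -0.61 ± 0.19 (edgeR adjusted p = 0.173). Genotypes did not overlap at either gene, and 47% of all genes tested had no overlap. These were the 2 members at an unadjusted p under 0.05 in edgeR, where 16.6% of all genes tested had one. DESeq2 called both, where it called 12.4% of 14502 genes in either direction. With that trend removed the log2 fold change was 0.07 for Mat2a and -0.52 for Ahcy.

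Germline genes known to be held silent by promoter methylation in somatic cells were near 0 in both genotypes. Of 17 in the counts, 5 were at 0 in all libraries and 2 were expressed enough to test. The median of the 2 tested was 0.82, but it ran from -1.53 without knockout replicate 1 to 4.21 without wild-type replicate 1 and was -0.61 with the trend removed, so it has no settled direction. Summed over the 17 they reached 21.2 and 16.9 CPM in the knockout libraries against 12.5 and 5.34 CPM in the wild type. Tdrd1, a germ cell Tudor protein, stood at 4.85 and 7.59 CPM in the knockout libraries against 1.9 and 3.67 CPM in the wild type, and Brdt, a testis bromodomain protein, at 9.49 and 0.124 against 6.83 and 0 CPM. Neither passed, with 0 at an unadjusted p under 0.05 in edgeR, limma-voom and DESeq2. Of all genes, 16.6%, 14.8% and 19.4% had such a p in these tools. DNA methylation itself was not measured.

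Cell cycle genes were included since Dnmt1 and Uhrf1 are made mainly in cycling cells. Of 16 S phase genes 13 had a negative log2 fold change, against 47.7% of all genes tested, with a median of -0.40 and 6 at an unadjusted p under 0.05, all lower. The median was -0.13 when wild-type replicate 1 was left out and -0.62 when wild-type replicate 2 was. Rrm2, a subunit of ribonucleotide reductase, stood at 210 and 232 CPM in the knockout libraries against 391 and 312 CPM in the wild type, and Pola1, the catalytic subunit of DNA polymerase alpha, at 263 and 223 against 357 and 323 CPM. All 13 mitosis genes had a negative log2 fold change, with a median of -0.50 (-0.61 to -0.41 with a library left out) and 8 at an unadjusted p under 0.05. Mki67, the proliferation marker Ki-67, stood at 525 and 543 against 772 and 807 CPM, and Top2a, the topoisomerase of mitotic chromosomes, at 594 and 486 against 707 and 793 CPM. After adjustment edgeR and limma-voom called 0 of these 29 genes. Unadjusted, each had 6 and 8, all lower. Over all genes tested, 8.16% were lower in edgeR and 14.8% passed in either direction in limma-voom, unadjusted. DESeq2 called 5 of the S phase and 8 of the mitosis genes, all lower, where it called 6.14% of 14502 genes lower. Summed over the list, S phase genes reached 2178 and 2399 CPM in the knockout libraries against 3560 and 2677 in the wild type, and mitosis genes 2770 and 2515 against 3871 and 3839. Uhrf1 and Pcna were lower in the same libraries, and the part of cell cycle in their difference was not tested. With the trend on gene span and abundance removed, the medians were -0.07 for S phase and -0.22 for mitosis, and the log2 fold changes were -0.09 for Uhrf1, -0.04 for Rrm2, -0.05 for Mki67 and -0.01 for Top2a.

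**Figure D4:**
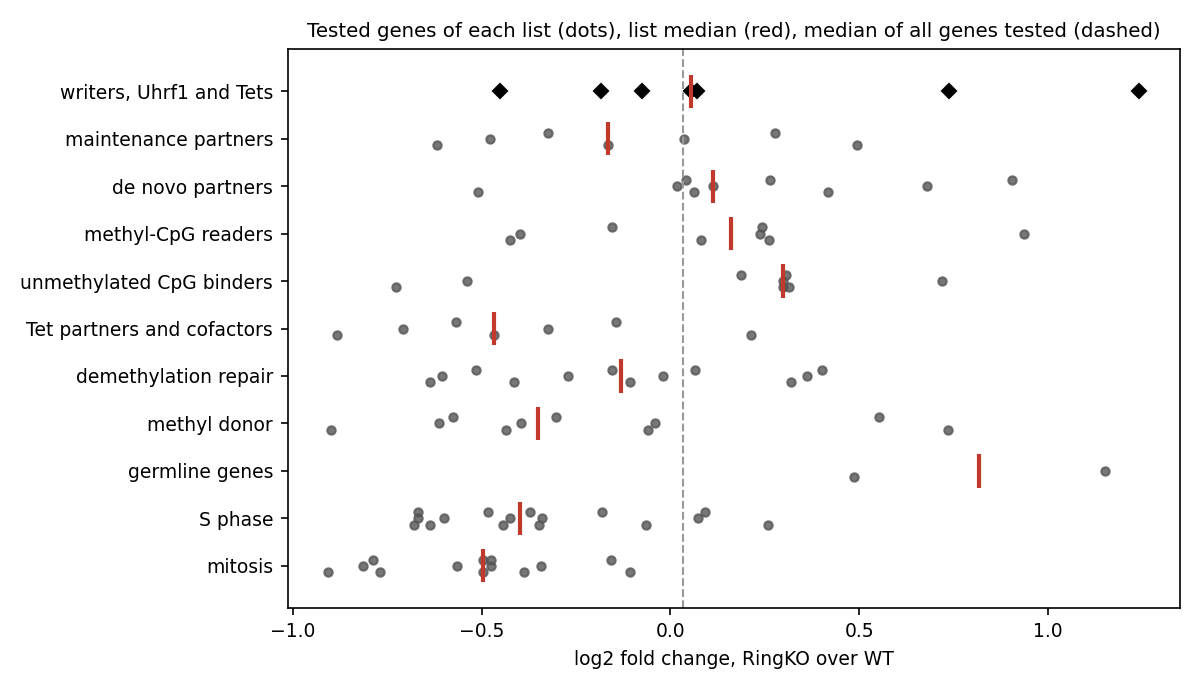
Log2 fold change, knockout against wild type, for the 7 genes (diamonds) and the tested genes of each of 10 lists (dots), with list medians in red and the median of all 13134 genes tested (0.03) dashed. Medians ran from -0.50 (mitosis) to 0.82 (germline genes, 2 tested, which turned sign with a library left out), and Dnmt3a at 1.24 lay furthest right.

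Likeness of pattern was measured as the root-mean-square difference of log2 CPM, centred per gene, over the 4 libraries, among 98 other genes of the family and its lists. The nearest gene was Slbp, the histone mRNA binding protein of S phase, for Uhrf1 (0.0639 log2 units) and Neil3, a repair glycosylase, for Dnmt1 (0.0572). Among these 98 genes Dnmt3a was nearest to the methyl-CpG reader Zbtb4, at a larger distance of 0.183. Zbtb4 stood at 57.9 and 45.6 CPM in the knockout libraries against 20.9 and 33 CPM in the wild type. The cell type markers were not among the genes compared. The follicle stem cell marker Sox9, singled out after its value was seen, stood at 172 and 156 against 49.4 and 95.1 CPM. Dnmt3a stood at 173 and 158 against 52.4 and 87.4 CPM, and its distance to Sox9 was not computed. Tet1 was nearest to the H3K9 methyltransferase gene Ehmt1 (0.238), Tet2 to the replication gene Cdc45 (0.0483), Tet3 to the H3K9 methyltransferase gene Setdb1 (0.0723), and Dnmt3b to Zbtb38 (0.482), the loosest match. With 4 libraries these are descriptions of the libraries.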

How the data were processed

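RNA was copied and amplified with SMART-seq2, a full-length method for polyadenylated RNA, per the labels' protocols. Per the submitters' processing notes the build was mm9 and the tools included TopHat2 2.1.1, Bowtie 1.2.2, HTSeq 0.7.2, and DESeq2 under the number 3.7, and the roles of the tools were not given there. The sources used here give no settings, annotation or use of strand. The authors deposited whole-number counts per gene symbol and a normalized signal, which is those counts divided by 1 constant per library. Per the file headers, the authors' comparison table gives a log2 fold change with its SE, a Wald score, p-values before and after adjustment, and a mark. Marks were given only to genes whose log2 fold change reached 1 in size, with adjusted p-values up to 0.0998.

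Differences in counts were tested with edgeR 4.0.16 in R 4.3.3 (filterByExpr, TMM, robust glmQLFit, glmQLFTest, genotype as the only term; 13134 genes, threshold 0.05 after Benjamini-Hochberg adjustment over all of them), after a check on simulated data. The SE was taken as the size of the log2 fold change divided by the root of F. Intervals use the fit's degrees of freedom and are not adjusted. Alternatives were limma 3.58.1 (voom), DESeq2 1.42.0, other scalings and filters, a replicate block, each library left out, and, chosen after the data were seen, a crossed block and a loess trend on gene span and abundance. Tables were made in Python 3.11.15 with pandas 2.3.3 and scipy 1.17.1. Total counts per library limit the precision: 4844381 and 7740945 (knockout), 2785843 and 3056593 (wild type).

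The 7 genes, the lists and the tests were chosen with earlier results of these data known. The genes named are the 7, both targeted genes, from each list up to 4 members past the threshold or otherwise the 2 of highest mean CPM, and the gene nearest in pattern to each of the 7; others are said to be picked after their values were seen, and 1 gene the rule named is not reported here. GRCm38.p6 tables gave names, gene spans and promoter sequences; transcript lengths were not used here, so no level per length was computed. The Ring1b peak lists carry no gene names and were not used here.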

Additional observations from a re-analysis of the deposited data

How the results depend on the processing

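Over all genes edgeR called 8 (7 higher, 1 lower), DESeq2 1792 (901 and 891), limma-voom 0 (1945 at an unadjusted p under 0.05), edgeR without a low-count filter 802 (455 and 347), with at least 1 CPM in 2 libraries 1 (1 and 0), and with the trend on gene span and abundance removed 1 (1 and 0). Leaving out 1 library gave 0 (without knockout replicate 2; 1098 unadjusted) to 60 (without wild-type replicate 2) genes, 0 to 43 higher and 0 to 17 lower. Of the 7 genes, DESeq2 called 2, edgeR without a filter 1 and without wild-type replicate 2 1 (0 to 1 over the left-out libraries). Of the list genes DESeq2 called 18 and edgeR without a filter 7. Library sizes alone moved the median of all genes from 0.03 to 0.13. Dnmt3a passed in DESeq2 (1.24, adjusted p = 0.000289), edgeR without a filter (1.25, 0.000848) and without wild-type replicate 2, over a range of 0.93 to 1.64 with a library left out. Uhrf1 passed in DESeq2 only (-0.45, adjusted p = 0.0486). With a library left out, signs turned for Dnmt3b (-0.95 to 0.81), Tet2 (-0.20 to 0.34), Tet3 (-0.0587 to 0.17), Usp7 (-0.0037 to 0.0651), Nsd1 (-0.0407 to 0.11), Nsd2 (-0.22 to 0.21), Mbd4 (-0.52 to 0.13) and Brdt (-4.50 to 7.66). Signs also turned for Dnmt3b with library sizes alone (0.0321), for Dnmt1 (0.0015), Mbd4 (0.0039), Mat2a (0.0668) and Brdt (-1.39) with the trend removed, and for Nsd2 (-0.0292) and Brdt (-0.11) in limma-voom. None of these turned values passed a test, and the cause was not tested. With the replicate number as a block, edgeR called 416 genes (213 higher, 203 lower), 6 of the list genes and 1 of the 7, Dnmt3a (1.28, adjusted p = 0.0159). Same-numbered libraries deviated from their genotype means with a correlation of -0.14 across 13134 genes, so the numbers are not shown to pair them. The crossed pairing, chosen after the data were seen, called 8 genes (8 higher, 0 lower). Depth limits Dnmt3b most, with 21 to 89 counts. Levels per length were not run.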
